A study of Mus musculus with 6 samples.

Results

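The genes described here encode some of the proteins of pre-mRNA splicing. These are SR proteins, the TRA2 proteins, heterogeneous nuclear ribonucleoproteins (hnRNP proteins), subunits of the splicing factors SF3A and SF3B, proteins of the small nuclear ribonucleoproteins (snRNP) and U2AF. The genes were found by symbol, as every gene whose name begins with Srsf or its older form Sfrs, Hnrnp or Hnrp, Sf3a, Sf3b, Snrp, U2af or Tra2, and a probe set was kept where it names that gene alone. This gave 153 of 45037 tested probe sets and 52 of 18193 genes, and 37 of the 52 genes were measured by 2 or more probe sets. A further 18 probe sets name such a gene together with another and were not used, so that Srsf7, Snrpa, Snrpd1, Snrpd2 and Hnrnpa3 have no value here. By role, 10 genes encode SR proteins (33 probe sets), 2 TRA2 proteins (11), 19 hnRNP proteins (58), 9 subunits of SF3A or SF3B (30), 9 snRNP proteins (18) and 3 U2AF proteins (3). For each gene, the probe set of highest mean signal over the 6 arrays, called the brightest, was set against its other probe sets, of which there were 101. The brightest was a median of 4.11 times as bright as the median of the others (37 genes).

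RNA was taken from alveolar type II cells, the surfactant-secreting cells of the alveolus, of Stat3Δ/Δ mice and of non-deleted littermates at 8 weeks of age, and each array held the RNA of 1 pool of 3 mice, with 3 pools in each group. The Stat3Δ/Δ mice carried SP-C-rtTA, (tetO)7CMV-Cre and Stat3 flx/flx, so that Cre, under a doxycycline-dependent activator driven by the surfactant protein C promoter, removed exon 21 of Stat3 in respiratory epithelium. The labels call the control mice double transgenic for SP-C-rtTA and (tetO)7CMV-Cre, while the methods give them as Stat3 flx/flx with SP-C-rtTA or with (tetO)7CMV-Cre, and the sources were not reconciled here. Dams received doxycycline in the food between embryonic day 0 and postnatal day 25. The values are signals of Affymetrix MOE430 arrays, and 69.9 was added to each before log2 was taken, so that fold changes of dim probe sets are understated.

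Splicing removes introns in the nucleus. The U1 and U2 snRNPs recognise the ends of the intron with the help of U2AF at the 3' splice site and of SF3A and SF3B at the branch point, while SR and TRA2 proteins bind exonic enhancers and mostly favour the use of a splice site, and many hnRNP proteins oppose it. Many SR, TRA2 and hnRNP genes also splice their own transcripts into alternative forms, some of which are degraded, so that different probe sets of such a gene need not measure the same RNA. Which transcripts each probe set measures was not analysed here.

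Median signals were 337.7 to 381.2 on the Stat3Δ/Δ arrays and 282.8 to 360.5 on the control arrays. Stat3 itself was lower on every Stat3Δ/Δ array than on any control array in 2 of its 4 probe sets (log2 fold changes -0.80 and -0.71), and the other two gave -0.047 and 0.60. The titles carry a leading number, of unstated meaning, that Stat3Δ/Δ pools 1 and 2 share with control pool 3, and values within these 3 arrays stand beside the pooled ones. RNA integrity was read from the control probe sets at the 3' and 5' ends of Actb, whose log2 ratio, 3' over 5', was 0.39 ± 0.046 in Stat3Δ/Δ cells, against 0.64 ± 0.17 in control cells (SD, n = 3 each). For Gapdh it was -0.41 ± 0.099 in Stat3Δ/Δ cells, against 0.020 ± 0.26 in control cells (SD, n = 3 each), and a two-sided exact permutation test gave p = 0.1 for both, which is as low as 3 pools against 3 can reach. The study reports that type II cell purity, read from a modified Papanicolaou stain, did not differ between groups. Residual alveolar macrophages were the main contaminant it names. Summed signals of 8 type II cell markers were 614537 to 817022 in Stat3Δ/Δ cells and 733198 to 819033 in control cells, with a median log2 fold change of -0.029. Of the other cells that an isolate can hold, 10 macrophage markers summed to 221804 to 271657 in Stat3Δ/Δ cells and 223830 to 228968 in control cells, with 9 of 10 log2 fold changes above 0 and a median of 0.51. For 8 fibroblast markers the sums were 5799 to 11694 in Stat3Δ/Δ cells and 17798 to 32956 in control cells, with 7 of 8 below 0 and a median of -1.21. For 9 lymphocyte markers they were 31113 to 40187 in Stat3Δ/Δ cells and 14200 to 38047 in control cells, with a median of 0.39. Medians were -0.99 for 7 ciliated, -0.22 for 5 airway secretory, -0.28 for 7 endothelial, -1.22 for 4 mesothelial and 1.296 for 4 neutrophil markers. The part of integrity or of other cells in the values that follow was not tested, and in such isolates fewer cells of a type and less RNA per cell cannot be told apart.

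The SR and TRA2 genes lay mostly higher in Stat3Δ/Δ cells. The SF3A and SF3B genes lay mostly lower, as did 10783 of 18193 genes by the brightest probe set. Without Stat3Δ/Δ pool 1 the SF3A and SF3B median was 0.044. No splicing gene passed the full thresholds (p no more than 0.05, FDR no more than 10%, fold no less than 1.5). With these thresholds, limma called 0 of the 153 probe sets, beside 1 of 45037 over the whole array (0.00222%), and 13 of the 153 had an unadjusted limma p under 0.05, beside 3807 of 45037 (8.45%). Likewise called were 0 of the 52 genes by their brightest probe set, beside 2 of 18193 (0.011%). At p and fold without the FDR, 2 of the 52 brightest probe sets were higher in Stat3Δ/Δ cells (3.85%), against 2.19% of all genes, and 0 were lower, against 5.56% of all genes. Of the 101 other probe sets, 0 passed the FDR (0% of all genes' other probe sets did), 11 were higher without it (10.9%), against 5.77% for all genes, and 0 were lower, against 3.38%. The 11 were 3 when the leading title number entered the fit as a block. Groups did not overlap for 3 brightest probe sets that were higher and 1 that was lower, against 4.24% and 10.2% of all genes. The 3 were Srsf5, Srsf6 and Hnrnph2, which was named after its values were seen, and the 1 was Sf3b5. Among the other probe sets, 14 did not overlap and were higher (13.9%), against 7.81%, and 4 were lower (3.96%), against 6.32%. Those 4 were 2 of Hnrnpab and 1 each of Sf3b2 and Tra2b. For 1455855_x_at of Hnrnpab the groups were apart only after quantile normalization. Its deposited signal was 45815 in Stat3Δ/Δ pool 3, against 42282 in control pool 3.

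**Figure D1:**
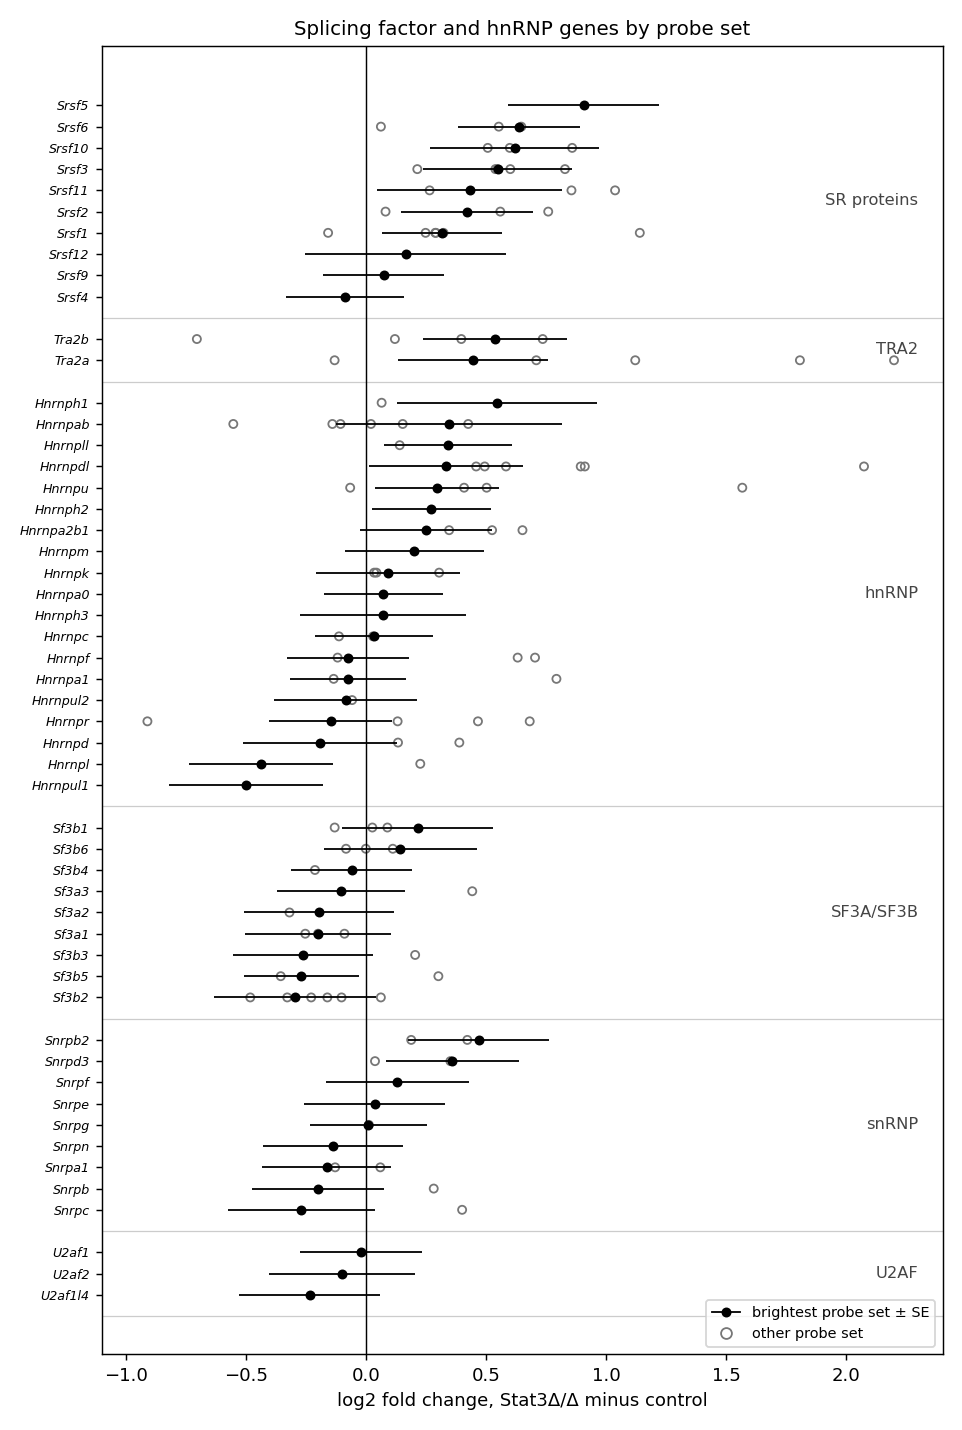
Log2 fold change, Stat3Δ/Δ minus control, of 153 probe sets of 52 splicing genes, grouped by role. Filled points are the brightest probe set of a gene with its standard error from limma, and open circles are its other probe sets. SR and TRA2 genes lie mostly right of 0, with Srsf5 at 0.91. Left of 0 lie 7 of 9 SF3A and SF3B genes, beside 10783 of all 18193 genes by the brightest probe set.

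The median log2 fold change of the brightest probe sets was 0.070 over the 52 splicing genes, with 30 above 0 and 22 below, while that of all genes was -0.085. For the other probe sets it was 0.25, with 74 of 101 above 0, while that of all genes' other probe sets was 0.034. With arrays centred on their medians in place of quantile normalization, the median over the brightest probe sets of splicing genes was -0.12 and that of all genes -0.18. By role, this centring gave 0.23 for SR genes, with 8 of 10 above 0, 0.30 for TRA2, -0.32 for SF3A and SF3B and -0.25 for U2AF genes, and 0.38 for the other probe sets of SR genes. Within the shared title number, the brightest splicing probe sets had a median of 0.17 and the others 0.30. The counts rested on few arrays. Without Stat3Δ/Δ pool 1 the brightest probe sets that passed without the FDR numbered 0 and the others 5, without control pool 1 they numbered 0 and 7, and without Stat3Δ/Δ pool 3 they numbered 4 and 12. Leaving out Stat3Δ/Δ pool 2 or control pool 2 left 1 brightest probe set. The median over the other probe sets was 0.083 without Stat3Δ/Δ pool 1, and that over the brightest was -0.031 without control pool 3.

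**Figure D2:**
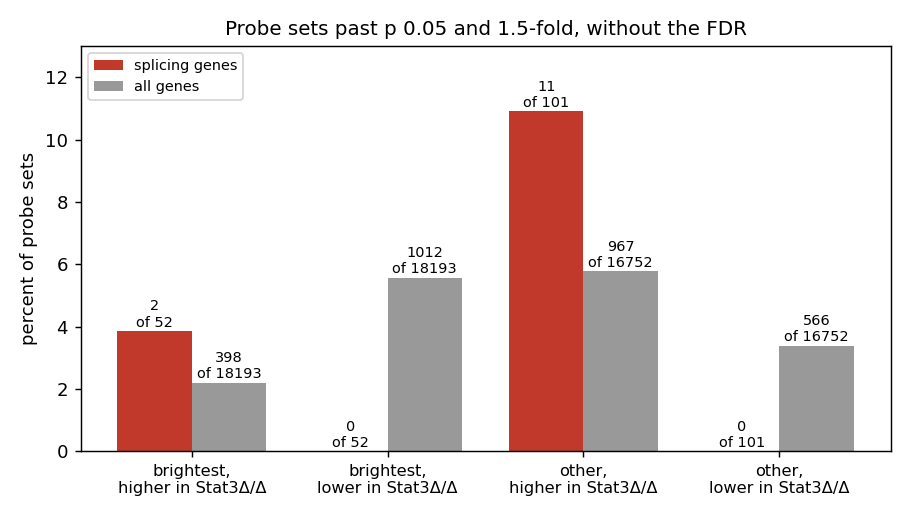
Percent of probe sets with p no more than 0.05 and fold no less than 1.5 in limma, without the FDR, for splicing genes and for all genes, by kind of probe set and direction. Numbers over the bars are counts; 2 of 52 brightest and 11 of 101 other probe sets of splicing genes were higher in Stat3Δ/Δ cells and none of either kind was lower.

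Of the 10 SR genes, 9 had a log2 fold change above 0 by their brightest probe set, with a median of 0.43, and 22 of their 23 other probe sets were above 0 as well, with a median of 0.55. Without Stat3Δ/Δ pool 1 both medians were 0.27, and that of the others was 0.35 without control pool 1. Srsf5, an SR protein that binds exonic enhancers, has a single probe set (1423130_a_at). Its signals were 49519, 29721 and 29850 in Stat3Δ/Δ pools 1 to 3, against 18954, 20450 and 20609 in control pools 1 to 3. Every Stat3Δ/Δ array was above every control array, and pool 1 stood well above the other Stat3Δ/Δ pools. The log2 fold change was 0.91 (standard error, SE, 0.31; unadjusted p = 0.020, limma-adjusted p over all genes = 0.555), 0.95 within the shared title number and 0.61 without Stat3Δ/Δ pool 1. Srsf6 encodes another enhancer-binding SR protein. Its brightest probe set had 20164, 16411 and 15363 in Stat3Δ/Δ cells, against 11964, 11217 and 11408 in control cells. These groups did not overlap either, and the log2 fold change was 0.64 (SE 0.26, unadjusted p = 0.037, limma-adjusted p over all genes = 0.609). The other 3 probe sets of Srsf6 gave 0.060, 0.55 and 0.65, all with overlapping groups.

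Srsf3 encodes the smallest SR protein, which also takes part in mRNA export. Its brightest probe set had 25279, 16175 and 20239 in Stat3Δ/Δ cells, against 19397, 15521 and 10373 in control cells, so that the groups overlapped, with a log2 fold change of 0.55 (SE 0.31). Of its 5 other probe sets, which gave 0.21 to 0.83, only 1416152_a_at kept the groups apart, with 9825, 5355 and 6109 in Stat3Δ/Δ cells, against 4166, 3855 and 3708 in control cells (limma-adjusted p over all probe sets = 0.535). For Srsf2, which acts in constitutive and alternative splicing, the brightest probe set gave 0.42 (SE 0.28) with overlapping groups. Its probe set 1452439_s_at gave 0.76 and kept them apart, with 7290, 4394 and 6044 in Stat3Δ/Δ cells, against 3177, 3742 and 3295 in control cells. For Srsf1, the founding member of the family, the brightest probe set gave 0.31 (SE 0.25). Its 6 other probe sets ran from -0.16 to 1.14, and the highest of these, 1452430_s_at, had 5696, 4606 and 5399 in Stat3Δ/Δ cells, against 1307, 2817 and 3212 in control cells. Srsf10 and Srsf11, named here after their values were seen, each had 1 other probe set past p and fold without the FDR, at 0.86 and 1.04. That of Srsf10 kept the groups apart. That of Srsf11 had 1432, 717.9 and 341.9 in Stat3Δ/Δ cells, against 288.1, 253.3 and 318.2 in control cells. Its groups overlapped after quantile normalization, and it gave 0.58 without Stat3Δ/Δ pool 1. Srsf4 (-0.090), Srsf9 (0.072) and Srsf12 (0.16), with 1 probe set each and likewise named after their values were seen, lay within their standard errors of 0, and Srsf12 was dim, with signals of 6.6 to 129.6.

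Both TRA2 genes, whose proteins bind GA-rich exonic enhancers, were above 0 by their brightest probe set, with a median of 0.49, and 7 of their 9 other probe sets were, with a median of 0.71. Without Stat3Δ/Δ pool 1 these medians were 0.31 and 0.39, and that of the others was 0.46 without control pool 1. Tra2b had 19894, 18389 and 13181 in Stat3Δ/Δ cells, against 10714, 11372 and 14506 in control cells, with control pool 3 above Stat3Δ/Δ pool 3, and a log2 fold change of 0.54 (SE 0.30, limma-adjusted p over all genes = 0.722). Its second probe set, 1419543_a_at, gave 0.73 with 11803, 8771 and 8132 in Stat3Δ/Δ cells, against 3873, 7066 and 6790 in control cells, and did not overlap. The dimmest of the 5, 1446496_at, gave -0.71 with signals of 16.4 to 23.1 in Stat3Δ/Δ cells and 36.1 to 134.0 in control cells, where only control pool 2 was above the 69.9 that was added. Tra2a had 11516, 8668 and 6799 in Stat3Δ/Δ cells, against 8093, 7362 and 4970 in control cells, by its brightest probe set, with overlapping groups and a log2 fold change of 0.45 (SE 0.31), or 0.23 without Stat3Δ/Δ pool 1.

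Of the 153 probe sets, 2 others of Tra2a and 1 of Hnrnpdl had the 3 highest log2 fold changes. Probe set 1442886_at had 2417, 2318 and 1081 in Stat3Δ/Δ cells, against 268.2, 270.7 and 1085 in control cells, and gave 1.81 (SE 0.49, unadjusted p = 0.0059, limma-adjusted p over all probe sets = 0.480). Control pool 3 was at the level of Stat3Δ/Δ pool 3 in the deposited signals, and the groups were apart only after quantile normalization. Probe set 1455933_at gave 2.20 (SE 0.76), with 1330, 2039 and 489.9 in Stat3Δ/Δ cells, against 29.9, 114.2 and 782.3 in control cells, where control pool 3 exceeded Stat3Δ/Δ pool 3. Probe set 1429680_at had 3607, 1659 and 1436 in Stat3Δ/Δ cells, against 567.8, 963.5 and 1196 in control cells, and gave 1.12. Within the shared title number these 3 probe sets gave 1.12, 1.06 and 1.03, close to the 1.04 of the brightest probe set there.

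**Figure D3:**
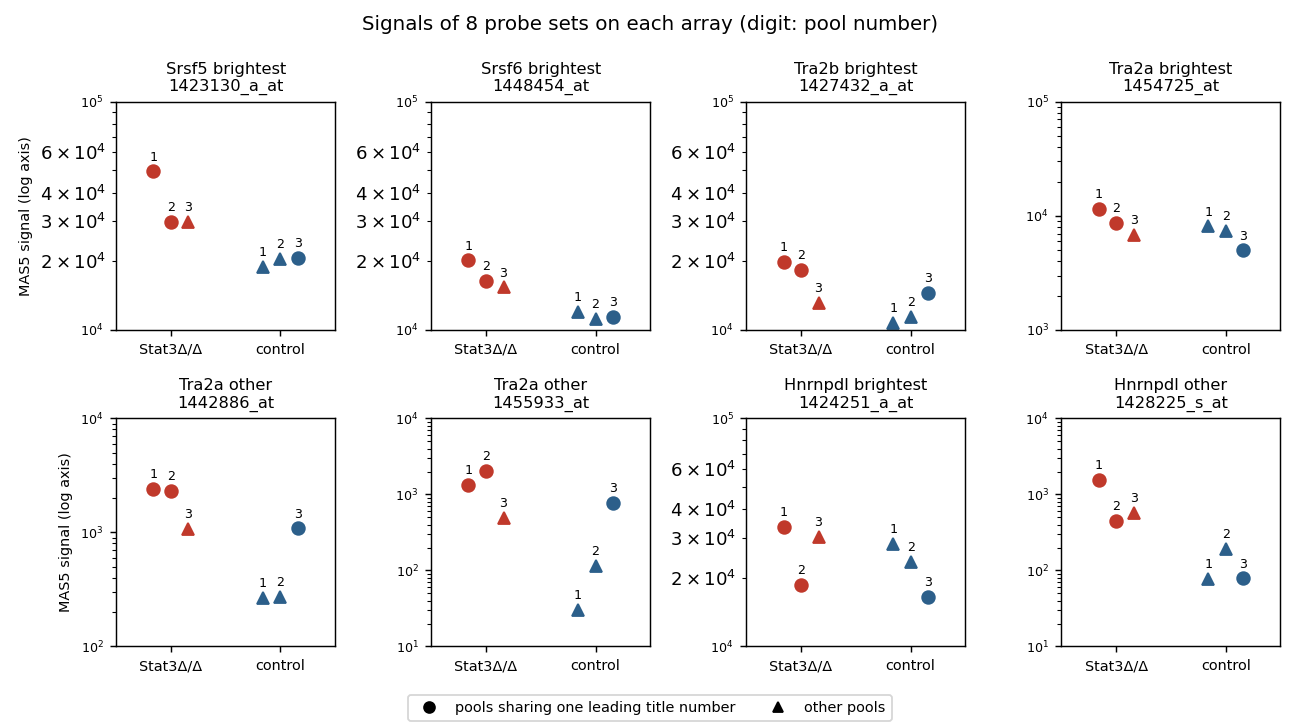
Deposited signals (log axis) of 8 probe sets on each array, Stat3Δ/Δ left and control right, with the pool number above each point and circles for the 3 pools that share a leading title number. Srsf5 and Srsf6 keep the groups apart, while control pool 3 lies at 1085 and 782.3 in 2 probe sets of Tra2a whose other control values are 29.9 to 270.7.

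Promoter sequences, from RefSeq on GRCm38.p6, covered 250 bases before to 50 bases after the start of 46 of the 52 genes, in 63 windows. Those of Srsf5, Srsf6 and Tra2a are shown because their probe sets had the values above, and that of Hnrnpa2b1 because it holds the motif of STAT proteins. Hnrnpa2b1 has 2 windows, and only the first listed is shown. Windows were searched on both strands for TTCNNNGAA, the palindromic STAT motif, for CCGGAAG, a core of ETS factors, and for TGACGTCA, the palindromic cyclic AMP response element, which was added after the sequences were seen. Each lies 5′ to 3′ on the strand of its gene, and capitals mark the matches. Srsf5 is at chr12:80945249-80945548 on the plus strand, Srsf6 at chr2:162931258-162931557 on the plus strand, Tra2a at chr6:49264003-49264302 on the minus strand and Hnrnpa2b1 at chr6:51469845-51470144 on the minus strand.
Srsf5: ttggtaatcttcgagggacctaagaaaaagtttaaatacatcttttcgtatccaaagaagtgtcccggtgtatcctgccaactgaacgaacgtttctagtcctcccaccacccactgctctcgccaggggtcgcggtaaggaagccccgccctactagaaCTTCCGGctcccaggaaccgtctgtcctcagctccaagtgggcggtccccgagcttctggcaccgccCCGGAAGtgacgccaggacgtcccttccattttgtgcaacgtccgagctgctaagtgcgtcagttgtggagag
Srsf6: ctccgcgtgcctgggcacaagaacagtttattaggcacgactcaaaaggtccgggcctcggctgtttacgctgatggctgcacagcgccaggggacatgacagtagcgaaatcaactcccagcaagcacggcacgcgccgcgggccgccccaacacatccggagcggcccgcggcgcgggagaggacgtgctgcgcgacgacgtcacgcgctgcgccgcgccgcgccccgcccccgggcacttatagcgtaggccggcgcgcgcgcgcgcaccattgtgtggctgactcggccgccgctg
Tra2a: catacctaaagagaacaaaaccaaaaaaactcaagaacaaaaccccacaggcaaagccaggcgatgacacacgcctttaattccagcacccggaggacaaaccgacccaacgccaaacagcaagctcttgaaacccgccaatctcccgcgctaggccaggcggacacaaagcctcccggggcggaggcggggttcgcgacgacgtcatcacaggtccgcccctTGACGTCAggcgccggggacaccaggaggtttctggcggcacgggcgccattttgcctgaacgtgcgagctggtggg
Hnrnpa2b1: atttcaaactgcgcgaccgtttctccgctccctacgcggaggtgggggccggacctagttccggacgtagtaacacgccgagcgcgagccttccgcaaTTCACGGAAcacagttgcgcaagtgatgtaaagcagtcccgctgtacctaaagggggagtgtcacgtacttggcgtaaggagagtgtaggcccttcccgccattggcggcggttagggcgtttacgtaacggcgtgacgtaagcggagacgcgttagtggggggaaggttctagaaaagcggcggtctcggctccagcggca

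The STAT motif was in 6 of the 63 windows (9.52%), against 8.3% of 32851 windows of all genes, and these belonged to Hnrnpa2b1, Hnrnph1, Hnrnpr, Sf3b6 and Snrpg. None of the 3 SR or TRA2 windows above held it. In the window shown, the match of Hnrnpa2b1 began 152 bases before the start site. CCGGAAG was in 20 windows of 15 genes (31.7%), against 8.86% of all windows, and in Srsf5 its matches began 90 and 23 bases before the start. TGACGTCA was in 2 windows (3.17%), those of Tra2a and Snrpg, against 1.79% of all, and in Tra2a it began 27 bases before the start. A match describes the letters only.

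Of the 19 hnRNP genes, 12 were above 0 by their brightest probe set, with a median of 0.070, which was -0.083 with arrays centred on their medians, and 30 of 39 other probe sets were above 0, with a median of 0.30, which was 0.069 without Stat3Δ/Δ pool 1. Hnrnpa1, which favours the skipping of exons and opposes SR proteins, had 7035, 5601 and 5832 in Stat3Δ/Δ cells, against 7142, 6506 and 5925 in control cells, and a log2 fold change of -0.077 (SE 0.24). Its dim probe set 1455740_at had 689.3, 188.3 and 228.5 in Stat3Δ/Δ cells, against 142.3, 145.2 and 124.5 in control cells, and gave 0.79 (unadjusted p = 0.080), with every Stat3Δ/Δ array above every control array. Hnrnpa2b1, which also takes part in mRNA transport, gave 0.25 by its brightest probe set and 0.34, 0.52 and 0.65 by the others, all overlapping and all highest in Stat3Δ/Δ pool 1. Hnrnpc, which binds uridine tracts, gave 0.030 and Hnrnpk, which binds cytidine-rich RNA, 0.090 by their brightest probe sets, both well within their standard errors of 0.25 and 0.30. Both values lay below 0 with no normalization between arrays and with arrays centred on their medians.

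Hnrnpdl, a relative of the AU-rich element binding gene Hnrnpd, had 7 probe sets, all above 0. The brightest had 33527, 18651 and 30178 in Stat3Δ/Δ cells, against 28245, 23516 and 16554 in control cells, with overlapping groups and a log2 fold change of 0.33 (SE 0.32), or 0.12 without Stat3Δ/Δ pool 1. The dimmest, 1428225_s_at, had 1536, 450.1 and 563.8 in Stat3Δ/Δ cells, against 77.1, 191.9 and 78.6 in control cells. These groups were apart, with a log2 fold change of 2.07 (SE 0.46, unadjusted p = 0.0019), and its adjusted p of 0.452 from limma over all probe sets was the lowest of the 153. The 5 others gave 0.46 to 0.91. Hnrnpu, which binds nuclear scaffold DNA and RNA, gave 0.29 (SE 0.26) by its brightest probe set and -0.068 to 1.57 by its others. The highest of these, 1434390_at, had 1058, 194.9 and 209.3 in Stat3Δ/Δ cells, against 27.3, 182.9 and 39.6 in control cells, so that pool 1 alone stood far above, and it gave 0.89 without that pool. Hnrnpf, which binds guanine runs, gave -0.077 and -0.12 by its brightest and second probe sets and 0.63 and 0.70 by the others, the last (1450963_at) with 8010, 6770 and 6580 in Stat3Δ/Δ cells, against 2890, 4869 and 5755 in control cells. Hnrnph1, with the same preference for guanine runs, gave 0.55 (SE 0.42), carried by 26865 in Stat3Δ/Δ pool 1, where the other 5 arrays had 8362 to 13742, and gave 0.097 without that pool. Hnrnpul1, a relative of Hnrnpu, gave -0.50 (SE 0.32), or -0.21 without Stat3Δ/Δ pool 1, and Hnrnpl, which binds CA-rich RNA, -0.44 (SE 0.30). For Hnrnpl the value within the shared title number was 0.16. In Hnrnpr, named here after its values were seen, probe set 1452030_a_at gave 0.68 with groups apart, while its brightest gave -0.15. Hnrnpab, likewise named after its values were seen, had the highest mean signal of the 153 in its brightest probe set, with 43653, 87256 and 72969 in Stat3Δ/Δ cells, against 32936, 50550 and 112848 in control cells, and its 6 others gave -0.55 to 0.42.

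Of the 9 SF3A and SF3B genes, whose proteins hold the U2 snRNP on the branch point, 7 were below 0 by their brightest probe set, with a median of -0.20, and 14 of their 21 other probe sets were below 0, with a median of -0.10. Sf3b2 had 6697, 13484 and 13482 in Stat3Δ/Δ cells, against 14062, 11424 and 14685 in control cells, which gave -0.30 (SE 0.34), and its value was 0.043 without Stat3Δ/Δ pool 1. Its second probe set, 1433461_at, had 6937, 10078 and 12497 in Stat3Δ/Δ cells, against 14550, 13240 and 13045 in control cells, and gave -0.48 (SE 0.28, limma-adjusted p over all probe sets = 0.690) with every Stat3Δ/Δ array lower. Sf3b5 had 5514, 6224 and 6884 in Stat3Δ/Δ cells, against 7204, 8046 and 7292 in control cells, and gave -0.27 (SE 0.24). It was the only one of the 52 brightest probe sets that was lower on every Stat3Δ/Δ array. Sf3b3 gave -0.26 and Sf3a1 -0.20, with standard errors of 0.29 and 0.30, and Sf3a1 gave 0.044 without Stat3Δ/Δ pool 1. Sf3b1, which encodes the largest subunit, gave 0.21 (SE 0.31) by its brightest probe set and -0.13 to 0.088 by its others. The median of the 9 brightest probe sets was 0.044 without Stat3Δ/Δ pool 1. That pool was the lowest array on 16 of the 30 SF3A and SF3B probe sets, and the share over all probe sets was not counted.

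Of the 9 snRNP genes, 5 were above 0 by their brightest probe set, with a median of 0.0083, which was -0.18 with arrays centred on their medians and -0.043 with no normalization between them, and 8 of their 9 other probe sets were above 0, with a median of 0.19, or 0.083 without Stat3Δ/Δ pool 1. Snrpb, a protein of the Sm ring, had 14285, 17892 and 22524 in Stat3Δ/Δ cells, against 25998, 23844 and 16177 in control cells, and gave -0.20 (SE 0.28), while its other probe set gave 0.28. Snrpb2, of the U2 snRNP, gave 0.47 (SE 0.29), with 6223, 5145 and 3756 in Stat3Δ/Δ cells, against 3493, 4455 and 2914 in control cells. Snrpd3, another Sm protein, gave 0.36 (SE 0.28), and Snrpc, of the U1 snRNP, -0.27 (SE 0.31), all with overlapping groups. Snrpn, the imprinted relative of Snrpb that is abundant in neurons, was measured by 1 dim probe set, with signals of 25.9 to 68.2 in Stat3Δ/Δ cells and 24.4 to 76.4 in control cells. The 3 U2AF genes have 1 probe set each. U2af1, which reads the AG at the 3' splice site, gave -0.024, U2af2, which binds the polypyrimidine tract, -0.10, and U2af1l4, a paralog of U2af1, -0.24, each within its standard error of 0.25 to 0.30. Their median was -0.10, and 0.062 within the shared title number.

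The difference between probe sets was tested itself. For each gene, the mean log2 value of its other probe sets minus that of the brightest was taken on each array and compared between groups by limma over all 9010 genes with 2 or more probe sets. None of the 37 splicing genes passed the FDR, where 0% of all genes did, and at p and fold without the FDR none was past the threshold, nor had any an unadjusted p under 0.05 (8.93% of all genes had), against 6.27% of all genes with a larger difference in Stat3Δ/Δ cells and 2.35% with a smaller. The difference was above 0 in 24 of the 37, with a median of 0.039, and in 5386 of 9010 over all genes, with a median of 0.10, so that the splicing genes' median was below that of all genes. Within the shared title number it was -0.014. In Hnrnpdl the others minus the brightest was -2.66, -3.28 and -3.41 in Stat3Δ/Δ pools 1 to 3, against -3.84, -3.57 and -3.64 in control pools 1 to 3, with a difference between groups of 0.57 (SE 0.28, unadjusted p = 0.077, adjusted p = 0.582 from limma). Snrpb (0.48) and Snrpc (0.67) also kept the groups apart, with the same adjusted p of 0.582 from limma, and so did Hnrnpa1 (0.40). These 4 were 10.8% of the 37, against 11.3% of all genes. The other probe set of Snrpc was dim, with signals of 60.8 to 287.4, and its own groups overlapped. Without Stat3Δ/Δ pool 2 the difference of Snrpc was 0.34. The difference was lower on every Stat3Δ/Δ array in Tra2b (-0.40) and in Hnrnpll (-0.20), named after its values were seen, 5.41% of the 37, against 4.17% of all genes. Tra2a gave 0.69, Sf3a3, a subunit of SF3A, 0.55 and Hnrnpf 0.48, all with overlapping groups. The value of Tra2a was -0.23 within the shared title number, that of Hnrnpf was -0.014 there, and Hnrnpa1 (-0.060), Hnrnpf (-0.043) and Tra2b (0.20) changed sign when the second brightest probe set stood for the others.

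**Figure D4:**
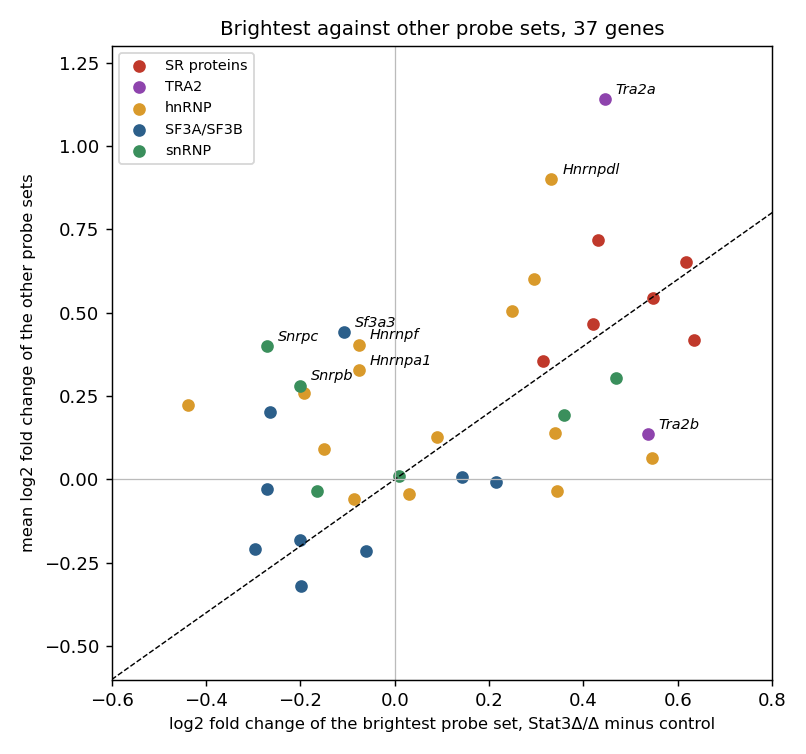
Log2 fold change, Stat3Δ/Δ minus control, of the mean of a gene's other probe sets (vertical) against that of its brightest probe set (horizontal) for 37 splicing genes, with the line of equality dashed. The 8 named genes have the smallest unadjusted p for the difference; 24 of the 37 lie above the line.

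The other probe sets of splicing genes were described by the kind of sequence record named for them and by brightness. With an expressed sequence tag as the named accession, 57 had a median log2 fold change of 0.29, against 0.037 for such probe sets of all genes, and with an mRNA or cDNA, 30 had 0.29, against 0.039. The 14 with no sequence record named had a median of -0.076 and 6 above 0, against 0.0068 for all genes. Records were sorted by prefix, and any without a listed mRNA or cDNA prefix counted as an expressed sequence tag. The 67 with a mean signal above 1000 had a median of 0.28, against 0.079 for all genes, and the 34 below it had 0.17, against 0.017. By name, the 15 with the suffix _x_at, which marks probes that can match other transcripts, had a median of 0.042, the 15 with _s_at 0.42, the 16 with _a_at 0.39 and the 55 with a plain name 0.22. Leaving out the _s_at and _x_at probe sets, a choice made after seeing the data, left 8 that were higher in Stat3Δ/Δ cells at p and fold without the FDR, with a median of 0.28.

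The arrays themselves were uneven. Stat3Δ/Δ pool 1 was the highest of the 6 arrays on 70 of the 153 splicing probe sets (45.8%), against 19.1% of all probe sets. Stat3Δ/Δ pools 2 and 3 were highest on 14 and 21 (9.15% and 13.7%), against 12.1% and 16.7% of all probe sets. Control pool 1 was lowest on 45 and control pool 3 on 39. How often each array was lowest over all probe sets was not counted. On the 44 probe sets of SR and TRA2 genes, Stat3Δ/Δ pool 1 was highest on 29 and control pool 1 lowest on 20. As deviation from each probe set's mean over the 6 arrays, the brightest probe sets of SR and TRA2 genes had medians of 0.58, 0.12 and 0.075 in Stat3Δ/Δ pools 1 to 3 and -0.17, -0.22 and -0.16 in control pools 1 to 3. These 2 ranges did not overlap after quantile normalization, the only one read by array. The brightest probe sets of all genes had -0.089, -0.063 and 0.027 in Stat3Δ/Δ pools 1 to 3. In control pools 1 to 3 they had 0.11, 0.058 and -0.0065. The other probe sets of SR and TRA2 genes had 0.74, 0.24 and -0.11 in Stat3Δ/Δ pools 1 to 3. In control pools 1 to 3 these had -0.45, -0.24 and -0.11, so that Stat3Δ/Δ pool 3 and control pool 3 were level. The SF3, snRNP and U2AF genes together had -0.30, -0.016 and 0.10 by their brightest probe sets in Stat3Δ/Δ pools, against 0.066, 0.18 and -0.039 in control pools.

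**Figure D5:**
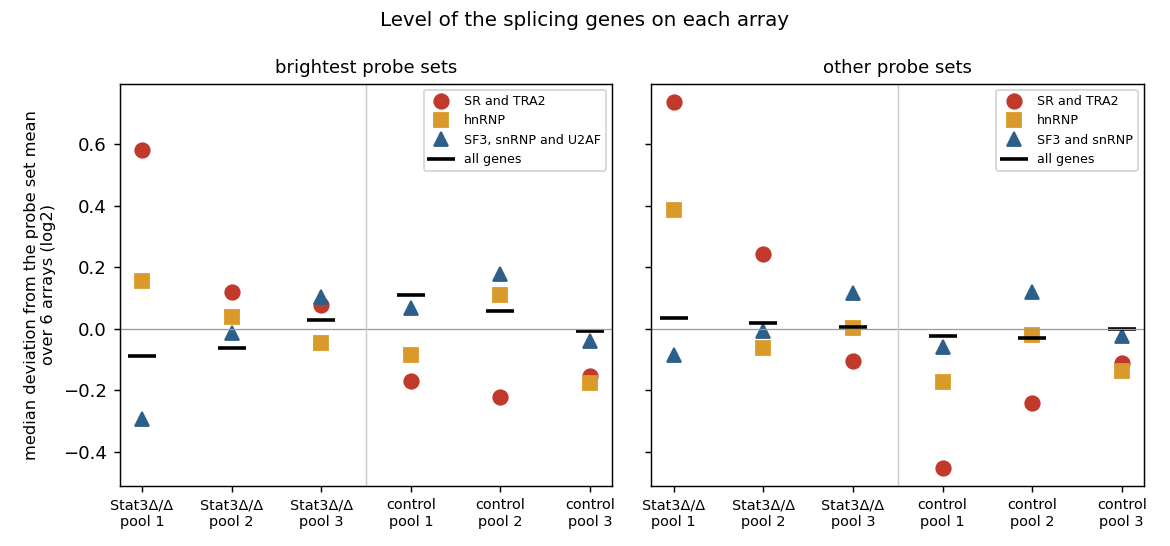
Median deviation of each array from the mean over 6 arrays (log2), for groups of splicing genes and for all genes (black bars), by brightest (left) and other probe sets (right). Stat3Δ/Δ pool 1 lies at 0.58 and 0.74 for SR and TRA2 genes and is the lowest array, at -0.30, for the brightest probe sets of SF3, snRNP and U2AF genes.

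Genes that work beside these were read from 5 lists, whose counts without the FDR stand against 2.19% of all genes higher and 5.56% lower by the brightest probe set, and 5.77% and 3.38% by the others, which had a median of 0.034. Of 56 measured core spliceosome genes, 0 passed the FDR by limma, and without it 1 brightest probe set was higher and 0 lower, with a median of -0.055. The 1 was Cwc15, a component of the activated spliceosome, with 5574, 4316 and 4318 in Stat3Δ/Δ cells, against 3353, 2547 and 3285 in control cells, and a log2 fold change of 0.62. Phf5a, a part of SF3B outside the symbols searched, gave -0.49 with groups apart. Groups did not overlap for 3 core genes that were higher (5.36%) and 5 that were lower (8.93%). The shares of all genes were 4.24% and 10.2%. The 70 other probe sets of the core genes had a median of 0.072, with 4 higher and 0 lower. Of 30 genes of SR protein kinases and nuclear speckles, 0 were past p and fold in either direction, with a median of -0.097. Clk3 (-0.59) and Clk2 (-0.55), kinases of SR proteins, had the smallest p. Clk2 was the only 1 of the 30 with groups apart (3.33%), and only after quantile normalization. Its deposited signal was 1398 in Stat3Δ/Δ pool 1, against 1375 in control pool 1. The 86 other probe sets of this list had a median of 0.19, and 7 were higher and 0 lower. Of 36 other regulators of alternative splicing, 1 was higher and 0 lower, with a median of 0.034. This was Ptbp2, the neuronal polypyrimidine tract binding protein, with 2269, 772.5 and 1200 in Stat3Δ/Δ cells, against 300.7, 764.9 and 630.9 in control cells. Sfpq, a paraspeckle protein, gave 0.53 with groups apart. Groups did not overlap for 3 of these regulators that were higher (8.33%), against 4.24% of all genes. They did not overlap for 2 that were lower (5.56%), against 10.2%. The 107 other probe sets of this list had a median of 0.32, and 22 were higher and 0 lower without the FDR. The 8 measured genes of the exon junction complex and nonsense-mediated decay had a median of -0.099, with 0 past p and fold, Smg5 at -0.36 and Upf1 at 0.24. By the 8 other probe sets of these genes the median was -0.0042, with 0 higher and 0 lower. Of 4 nuclear-retained long RNAs, Kcnq1ot1 gave 1.35 and was past p and fold, with 4259, 3821 and 1763 in Stat3Δ/Δ cells, against 850.2, 662.7 and 2413 in control cells. Malat1 gave -0.51, with control pool 3 at 45247. The 22 other probe sets of these RNAs had a median of 0.31, with 5 higher and 0 lower.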

How the data were processed

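The deposited values are linear signal intensities of 6 Affymetrix MOE430 arrays, made by the authors with Microarray Suite 5.0 (MAS5) and brought to a common trimmed mean, 1500, on every array. RMA values, on which the study's own tests rest, were not used. Of 45101 probe sets, 64 controls were left out. Genes were named by the platform annotation: 34945 probe sets name 1 gene, 932 several and 9160 none. To each signal 69.9 was added (the 20th percentile), and log2 values were quantile normalized. limma 3.58.1 (R 4.3.3) was fitted to 45037 probe sets with a term for the group, with Benjamini-Hochberg adjustment over all probe sets, over 18193 genes by the brightest probe set, or, in a separate fit of the others minus the brightest, over 9010 genes. The script was tested on simulated data. Precision is limited by the number of arrays.

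The genes and lists were chosen with earlier results of these data known. Genes named were fixed members of each role, up to 3 per role with the smallest p, the 8 with the smallest p for the difference, and up to 2 per list. Alternatives changed the pseudocount, normalization, filter on low signal, test, blocks, probe set and arrays. Figures were drawn with Python 3.11.15, pandas 2.3.3 and matplotlib 3.10.9.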

Additional observations from a re-analysis of the deposited data

How the results depend on the processing

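No splicing probe set, gene or difference passed the FDR under any alternative run. Of 544 values of single genes and probe sets under other settings, 510 kept their sign and 34 did not, and none crossed the FDR. The brightest probe sets past p and fold without the FDR numbered 2, and 1 with no pseudocount, with no normalization between arrays or with arrays centred on their medians, and 0 to 4 with 1 pool left out. The other probe sets numbered 11, and 7 with an ordinary two-sample test, without limma's moderation. A fixed block on the leading title number, which compares only the pools that share a number across groups, gave 3. A random block on it gave 11, and leaving out 1 pool gave 5 to 14. The brightest had a median of 0.070, which became -0.12 with arrays centred, 0.17 within the shared title number or with it as a fixed block, and -0.031 to 0.12 with 1 pool left out. That of the others was 0.25 (0.083 to 0.27), and that of the difference 0.039 (0.022 to 0.11). The integrity differences were -0.33 to -0.16 for Actb and -0.57 to -0.31 for Gapdh.

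Same-numbered pools did not deviate together (correlations of -0.084, -0.0088 and -0.24). With 3 pools in each group this cannot show whether the pools were paired by design. With the pool number as a replicate block, 1 brightest and 10 other probe sets passed without the FDR, and the medians were unchanged at 0.070, 0.25 and 0.039.

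Signs that turned included those of the differences of Tra2a, Hnrnpf, Hnrnpa1 and Tra2b and of the brightest probe set of Hnrnpl. With no normalization Hnrnpc gave -0.052 and Hnrnpk -0.023, and with arrays centred -0.19 and -0.16. Within the shared title number, and with it as a fixed block, Hnrnpa1 gave 0.072, Hnrnpf 0.18, Hnrnpl 0.16, Snrpc 0.11, Snrpn 0.26, U2af1 0.089 and U2af2 0.062, and the difference gave -0.014 for Hnrnpf and -0.23 for Tra2a. With the title number as a random block U2af1 gave 0.0073. With the mean of all probe sets Hnrnpa1 gave 0.19, Hnrnpc -0.019, Hnrnpf 0.28, Sf3a3 0.17, Snrpb 0.040 and Snrpc 0.064. The difference gave -0.060 for Hnrnpa1 and 0.20 for Tra2b both with the low filter and by the second brightest probe set, which gave -0.043 for Hnrnpf. With 1 pool left out, the ranges that crossed 0 were -0.049 to 0.33 for Hnrnpk, -0.14 to 0.072 for U2af1, -0.081 to 0.12 for Hnrnpc, -0.31 to 0.064 for U2af2, -0.15 to 0.063 for Hnrnpf, -0.45 to 0.044 for Sf3a1, -0.49 to 0.043 for Sf3b2, -0.018 to 0.47 for Sf3b1, -0.26 to 0.077 for Sf3a3 and -0.33 to 0.026 for Snrpn. The cause was not tested. Probe sets near the pseudocount, such as those of Snrpn and Srsf12, can show little change on this scale.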
